A study of Mus musculus with 20 samples.

Results

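The genes described here are 10 markers of lipid-associated macrophages, measured in mouse liver: Gpnmb, Trem2, Spp1, Cd9, Cd68, Lgals3, Itgax, Mmp12, Tyrobp and Ctss. They were taken by symbol from the table of counts, in which all 10 were found among 46095 gene symbols, and all 10 were among the 14440 genes that had enough counts to be tested. RNA was sequenced from whole livers of wild-type (WT) mice and of mice with a liver-specific knockout (KO) of Pck1, the gene of the cytosolic enzyme that commits carbon to gluconeogenesis. Mice of either genotype received chow or a diet that the labels call NASH diet and the column names of the table call HFD, for 24 weeks, and were 31 to 33 weeks old. The 4 groups, WT chow, WT NASH, KO chow and KO NASH, held 5 mice each. The sources used here do not give the Cre line that removed Pck1, the strain, or any allele that the WT mice shared with the KO mice. Gpnmb was higher in KO NASH than in WT NASH livers, by 4.22 on the log2 scale, and no KO NASH library overlapped a WT NASH library. Cd68 was 2.02 times higher in WT NASH and 2.04 times higher in KO chow than in WT chow livers, with overlapping groups. The other 8 genes passed the test in none of the 4 comparisons of groups.

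Lipid-associated macrophages take up lipid and dying cells and are found in fat tissue, atherosclerotic plaques and steatotic liver, where they are set apart from the resident Kupffer cells. TREM2 is a surface receptor that binds lipids and lipoproteins and has almost no signalling tail of its own. It signals through the adaptor TYROBP, also called DAP12, which recruits the kinase SYK. The other genes encode proteins of the lysosome, the surface or the secreted products of these cells, and several are also made by other cell types. In whole liver, fewer cells of a type and less RNA per cell cannot be told apart.

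The libraries held 9958935 to 20601955 counts each, and Pck1 itself fell in the KO groups, from 3573 ± 1139 (SD, n = 5) CPM in WT chow to 626 ± 175 CPM in KO chow, and from 2290 ± 511 CPM in WT NASH to 445 ± 112 CPM in KO NASH. CPM is a gene's count scaled to a library of fixed size, here after TMM, edgeR's normalization across libraries. Sex, read from the counts of 4 Y-linked genes, was not balanced over the groups: 5, 1, 3 and 4 of the 5 mice were male in WT chow, WT NASH, KO chow and KO NASH. The libraries also differed in how the level of a gene depended on its length. The length slope, the change in log2 CPM against the mean of all libraries per log2 unit of gene length, was -0.34 to -0.25 in 6 libraries (WT chow replicates 3, 4 and 5, WT NASH replicate 4, KO chow replicates 4 and 5) and 0.01 to 0.19 in the other 14. Short genes therefore measured higher in those 6 libraries. Hepatocyte markers summed to 48331 to 130473 CPM over the 20 libraries. KO NASH replicates 1 and 5 were the most alike of the 40 pairs within groups, with a chi-square of 7.81 per gene. The next lowest was 21.5, for WT chow replicates 1 and 2. A value of 7.81 is beyond sampling noise, but it cannot tell 2 mice from 2 libraries of 1 liver. The pair was kept as 2 mice because the labels number them so.

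By mean level per kilobase of merged exon, the members fell into 3 ranges. In WT chow livers Ctss, Spp1 and Tyrobp averaged 97.8, 85.5 and 61.6 CPM per kb. Lgals3, Cd9 and Cd68 averaged 8.06, 7.73 and 5.78 CPM per kb, and Trem2, Itgax, Mmp12 and Gpnmb averaged 0.336, 0.303, 0.240 and 0.129 CPM per kb. Within each of these ranges, neighbours in the order had overlapping libraries, so their order is not beyond the spread. In KO NASH livers the order was Spp1, Ctss, Tyrobp, Cd68, Cd9, Lgals3, Gpnmb, Mmp12, Itgax and Trem2, from 89.5 to 0.596 CPM per kb, with Gpnmb at 1.48 ± 0.885 and Mmp12 at 1.36 ± 0.835 CPM per kb (SD, n = 5). Neighbours in that order overlapped, except Ctss and Tyrobp, Tyrobp and Cd68, and Lgals3 and Gpnmb. The values of all members in every library are shown in the plot of levels by library.

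**Figure D1:**
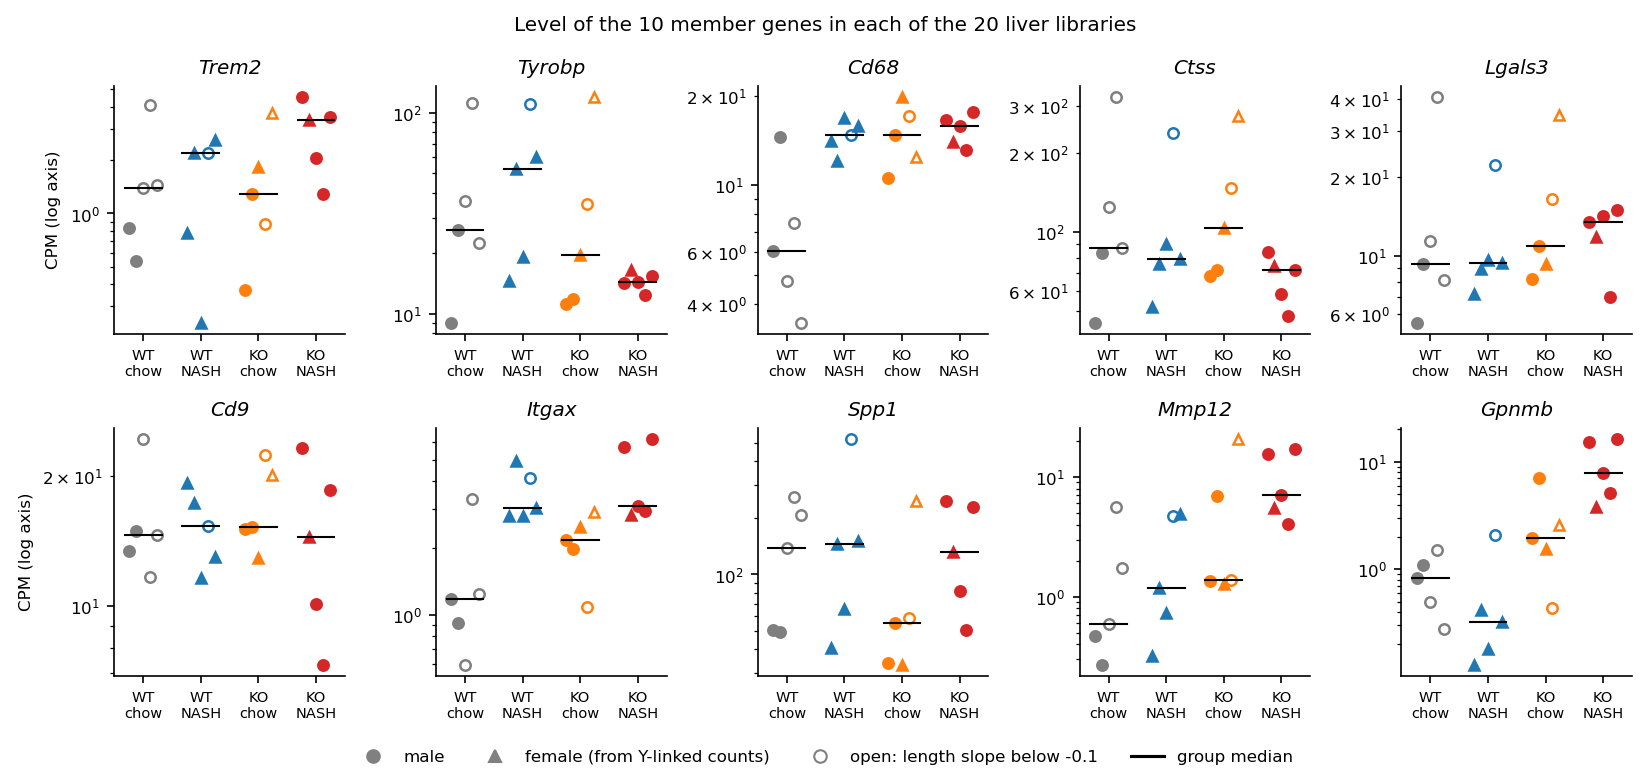
Level of each member (CPM, log axis) in the 20 libraries, by group, with 1 symbol per mouse (circle male, triangle female, open for a length slope below -0.1) and a line at the group median. Gpnmb separates the KO NASH libraries (3.80 to 16.2 CPM) from the WT NASH libraries (0.129 to 2.06 CPM), and most of the highest Tyrobp and Ctss values are open symbols.

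Gpnmb encodes glycoprotein NMB, a transmembrane protein of late endosomes and lysosomes that rises in macrophages loaded with lipid. The gene lies at chr6:49036546-49070929 on the plus strand of GRCm38 (GENCODE M21, protein-coding, 13 merged exons, 6.51 kb). In WT chow livers Gpnmb measured 0.829, 1.08, 0.498, 1.52 and 0.277 CPM in replicates 1 to 5. In WT NASH livers it measured 0.129, 0.415, 0.182, 2.06 and 0.323 CPM, which are counts of only 2 to 14 per library. These groups overlapped, and replicate 4 stood above the other WT NASH libraries. In KO chow livers it measured 1.95, 7.08, 1.53, 0.436 and 2.55 CPM. In KO NASH livers it measured 15.3, 3.80, 7.88, 5.08 and 16.2 CPM, from 89 to 359 counts. Every KO NASH library was above every WT chow and WT NASH library, while KO chow replicate 2 lay among the KO NASH libraries.

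Gpnmb was 18.7 times higher in KO NASH than in WT NASH (log2 difference 4.22, SE 0.757, edgeR quasi-likelihood test, Benjamini-Hochberg adjusted p = 0.00177). The same difference between genotypes on chow was 1.70 (SE 0.686, adjusted p = 0.162). Between diets Gpnmb differed by -0.71 in WT (adjusted p = 0.619) and by 1.81 in KO livers (SE 0.629, adjusted p = 0.106). The test of whether the genotype difference itself depended on diet gave 2.52 (SE 1.00, unadjusted p = 0.0199, adjusted p = 0.456), so the difference on NASH diet was not shown to be larger than that on chow. In the KO diet comparison, leaving out KO chow replicate 2 raised the difference to 2.56 (edgeR adjusted p = 0.0411).

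The KO NASH against WT NASH difference in Gpnmb was called with each of the 20 libraries left out in turn, at 3.94 to 5.16 on the log2 scale. Sex and genotype were partly confounded on NASH diet. Among males, the single WT NASH library measured 2.06 CPM and the 4 KO NASH libraries measured 5.08 to 16.2 CPM. Among females, the 4 WT NASH libraries measured 0.129 to 0.415 CPM and the single KO NASH library measured 3.80 CPM. The genotypes did not overlap within either sex. Each of these sets 1 library against 4, and the share of all genes that part in this way was not counted, so this is a description only. The male WT NASH library, replicate 4, was also the only WT NASH library of negative length slope and had the fewest counts of the 20 (9958935). Within WT NASH, sex and length slope could therefore not be told apart. With sex as a term of the fit the log2 difference in Gpnmb was 3.43 (edgeR adjusted p = 0.00714), and in males alone, with 1 WT library, it was 2.43 (adjusted p = 0.192). KO NASH replicates 1 and 5, the most alike pair, held the highest Gpnmb values, and without both the difference was 3.42 (adjusted p = 0.0235). On chow, the genotype difference in Gpnmb passed the test with sex as a term, at 2.27 (edgeR adjusted p = 0.0425), and with sex and length slope as terms, at 2.16 (adjusted p = 0.0360).

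The 250 bases before the RefSeq start of a gene (GRCm38.p6) are printed for 3 members: Gpnmb, Mmp12, the member with the highest correlation with Gpnmb over the libraries, and Cd68, the other member that passed a test. Entries were found for 9 of the 10 members, with 11 starts in all. Capitals mark matches, on either strand, to the letters TCACGTG and TCATGTG (cores of E-box and M-box sites of the MITF and TFE family), TGANTCA (AP-1) and GAGGAAGT (PU.1). Overlaps between motifs were allowed. Of 32851 upstream windows of this length, 3.13%, 3.25%, 6.75% and 2.44% held these letters. The windows lie at chr6:49036268-49036517 (plus strand) for Gpnmb, chr9:7347124-7347373 (plus strand) for the downstream of the 2 Mmp12 starts, and chr11:69666171-69666420 (minus strand) for Cd68.
Gpnmb: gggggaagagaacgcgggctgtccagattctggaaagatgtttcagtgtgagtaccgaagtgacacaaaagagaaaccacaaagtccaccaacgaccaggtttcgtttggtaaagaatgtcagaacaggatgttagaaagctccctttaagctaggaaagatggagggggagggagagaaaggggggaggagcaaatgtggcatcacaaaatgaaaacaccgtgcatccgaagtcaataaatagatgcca
Mmp12: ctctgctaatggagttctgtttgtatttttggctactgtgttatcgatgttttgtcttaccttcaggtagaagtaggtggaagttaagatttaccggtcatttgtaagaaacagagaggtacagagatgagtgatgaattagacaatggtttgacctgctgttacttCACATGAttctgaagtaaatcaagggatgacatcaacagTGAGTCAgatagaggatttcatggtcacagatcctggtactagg
Cd68: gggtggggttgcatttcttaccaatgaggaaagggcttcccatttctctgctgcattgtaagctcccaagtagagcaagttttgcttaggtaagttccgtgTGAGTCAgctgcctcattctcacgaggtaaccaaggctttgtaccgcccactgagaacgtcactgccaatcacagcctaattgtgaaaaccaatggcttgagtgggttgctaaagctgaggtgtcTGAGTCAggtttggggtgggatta
The Gpnmb window holds none of the 4 motifs. The Mmp12 window holds the M-box letters on the minus strand, 83 to 77 bases before the start, and the AP-1 letters 44 to 38 bases before it. The Cd68 window holds the AP-1 letters at 149 to 143 and at 24 to 18 bases before the start. The AP-1 letters were also found upstream of Trem2 and Itgax, and the PU.1 letters upstream of the other Mmp12 start and of 1 of the 2 Spp1 starts. These are matches of letters and not measured sites.

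Mmp12, the macrophage metalloelastase, is secreted and cleaves elastin and other matrix proteins (chr9:7344381-7369499, plus strand, protein-coding, 7.24 kb). It measured 0.474, 0.271, 0.597, 5.60 and 1.73 CPM in WT chow and 0.323, 1.19, 0.726, 4.71 and 4.91 CPM in WT NASH livers. It measured 1.34, 6.92, 1.29, 1.38 and 20.6 CPM in KO chow and 15.5, 5.51, 7.02, 4.07 and 17.2 CPM in KO NASH livers. KO NASH replicates 1 and 5 were high, as for Gpnmb, but KO NASH replicate 4 lay below 2 WT NASH libraries and KO chow replicate 5 was the highest of all 20. The KO NASH against WT NASH difference in Mmp12 was 2.11 (SE 0.899, edgeR adjusted p = 0.141), with an interval of 0.24 to 3.98. It passed the test with length slope as a term, at 2.94 (edgeR adjusted p = 0.0184), in a fit of the 14 libraries with a length slope near 0, at 2.44 (adjusted p = 0.0294), and with limma voom and quality weights per library (called limma voom from here on), at 2.65 (adjusted p = 0.00583). The genotype difference on chow was 1.91 (SE 0.910, adjusted p = 0.254), and the diet differences were 0.45 in WT and 0.65 in KO livers (adjusted p = 0.810 and 0.653). Mmp12 overlaps the neighbouring gene Mmp1b on the other strand, and the strand setting of the counting is not given in the sources used here.

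Spp1 encodes osteopontin, a secreted phosphoprotein that binds integrins and is also made by cholangiocytes (chr5:104435118-104441050, plus strand, protein-coding, 1.65 kb). Its level spanned 33.2 to 522 CPM over the 20 libraries. It measured 50.6, 49.6, 139, 259 and 207 CPM in WT chow and 40.5, 144, 65.3, 522 and 150 CPM in WT NASH livers. It measured 34.0, 55.0, 33.2, 58.6 and 246 CPM in KO chow and 246, 132, 81.5, 50.9 and 227 CPM in KO NASH livers. All groups overlapped for Spp1, and WT NASH replicate 4 and KO chow replicate 5 stood far above the rest of their groups. The 4 log2 differences in Spp1 ran from -0.72 (KO chow against WT chow) to 0.79 (KO NASH against KO chow), with edgeR adjusted p of 0.497 or more. The KO diet difference in Spp1 passed the test with length slope as a term, at 1.95 (edgeR adjusted p = 0.0201), with sex and length slope, at 1.85 (adjusted p = 0.0241), and without the 6 libraries of negative slope, at 1.86 (adjusted p = 0.0456). The summed level of 7 cholangiocyte markers had medians of 6.77, 8.59, 3.92 and 6.95 CPM in WT chow, WT NASH, KO chow and KO NASH, and their part in the Spp1 values was not tested.

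Trem2 (chr17:48346401-48354147, plus strand, protein-coding, 4.95 kb) was low in all groups. It measured 0.829, 0.542, 1.39, 4.08 and 1.46 CPM in WT chow and 0.775, 2.20, 0.242, 2.21 and 2.58 CPM in WT NASH livers. It measured 0.371, 1.29, 1.83, 0.871 and 3.71 CPM in KO chow and 4.52, 3.38, 2.05, 1.29 and 3.49 CPM in KO NASH livers. The KO NASH median of 3.38 CPM was the highest of the 4, but 2 of its libraries lay among the WT NASH values. The difference between KO NASH and WT NASH in Trem2 was 0.90 (SE 0.617, edgeR adjusted p = 0.378), with an interval of -0.38 to 2.19, and between KO NASH and KO chow 0.88 (SE 0.606, adjusted p = 0.389). WT NASH and KO chow differed from WT chow by -0.04 and -0.01, with intervals of -1.37 to 1.29 and -1.32 to 1.29.

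Tyrobp, the adaptor, is the shortest member (chr7:30413760-30417585, plus strand, protein-coding, 0.67 kb). It measured 9.0, 26.2, 36.2, 112 and 22.5 CPM in WT chow and 14.6, 52.3, 19.1, 110 and 60.3 CPM in WT NASH livers. It measured 11.2, 11.9, 19.5, 35.2 and 119 CPM in KO chow and 14.2, 16.5, 14.3, 12.4 and 15.4 CPM in KO NASH livers. The 5 KO NASH libraries were close together and low, and 1 WT NASH library lay among them. The KO NASH against WT NASH difference in Tyrobp was -1.81 (SE 0.682, edgeR adjusted p = 0.0975), opposite in sign to that of Trem2. It passed the test with DESeq2, at -1.83 (adjusted p = 0.0336), without KO chow replicate 5, at -1.80 (edgeR adjusted p = 0.0460), and in the libraries with a length slope near 0, at -1.35 (edgeR adjusted p = 0.0246). With length slope as a term the difference in Tyrobp was -0.87 (edgeR adjusted p = 0.169), and without WT NASH replicate 4, the library of negative slope, it was -1.33 (adjusted p = 0.280). The KO diet difference in Tyrobp was -1.43 (SE 0.674, adjusted p = 0.216).

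Cd68 encodes a heavily glycosylated protein of macrophage lysosomes and is used as a general macrophage marker (chr11:69664213-69666153, minus strand, protein-coding, 1.26 kb). It measured 6.04, 14.5, 4.78, 7.50 and 3.46 CPM in WT chow livers. It measured 14.1, 12, 16.9, 14.7 and 15.9 CPM in WT NASH, 10.6, 14.7, 19.8, 17.1 and 12.5 CPM in KO chow, and 16.6, 14.0, 15.8, 13.1 and 17.6 CPM in KO NASH livers. WT chow was the low group, except for its replicate 2, which lay among the others. Cd68 rose by 1.01 from WT chow to WT NASH (SE 0.281, edgeR adjusted p = 0.0380) and by 1.03 from WT chow to KO chow (SE 0.280, adjusted p = 0.0360). KO NASH differed from WT NASH by 0.07 and from KO chow by 0.05, with intervals that stayed between -0.52 and 0.64.

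Both Cd68 calls shared the WT chow libraries and depended on single libraries. The WT NASH call in Cd68 was lost without any of WT chow replicates 1, 3, 4 or 5 or WT NASH replicates 1, 2, 3 or 5 (log2 differences of 0.84 to 1.08, edgeR adjusted p of 0.0557 to 0.0951). The KO chow call in Cd68 was lost without any of WT chow replicates 1, 3, 4 or 5 or KO chow replicates 2, 3 or 4 (0.87 to 1.06, adjusted p of 0.0570 to 0.0856). With sex as a term the 2 differences in Cd68 were 0.98 and 1.01 (edgeR adjusted p = 0.214 and 0.0568). In libraries with a length slope near 0, which leave 2 WT chow mice, they were 0.54 and 0.55 (adjusted p = 0.293 and 0.313). Of the 4 lowest Cd68 values, 3 came from WT chow libraries of negative slope, and the part of the slope in the call was not tested beyond these fits.

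Ctss encodes cathepsin S, a lysosomal protease that acts in antigen presentation (chr3:95526786-95556403, plus strand, protein-coding, 1.36 kb). Its medians were 86.7, 79.4, 104 and 71.9 CPM in WT chow, WT NASH, KO chow and KO NASH livers. The ranges were 45.3 to 324, 51.8 to 237, 68.2 to 275 and 48.0 to 84.0 CPM, so the groups overlapped and KO NASH had the narrowest range. The log2 differences in Ctss were -0.32 for diet in WT, 0.003 for genotype on chow, -0.66 for genotype on NASH diet and -0.98 for diet in KO livers. The edgeR adjusted p was 0.238 or more in all 4. The processed pseudogene Hmgb1-ps5 overlaps Ctss on the same strand, so that reads of either could be counted for the other.

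Lgals3 encodes galectin-3, a lectin that binds galactosides on damaged lysosomes and on the cell surface (chr14:47367751-47386160, plus strand, protein-coding, 1.86 kb). Its group medians were 9.32, 9.43, 10.9 and 13.6 CPM in WT chow, WT NASH, KO chow and KO NASH, with the highest library, at 40.5 CPM, in WT chow replicate 4. Its log2 differences lay between -0.39 and 0.12 (edgeR adjusted p of 0.661 or more). Cd9, a tetraspanin of many cell types, had group medians of 14.6, 15.3, 15.2 and 14.4 CPM (chr6:125460266-125494791, minus strand, protein-coding, 2.04 kb). Its log2 differences lay between -0.21 and 0.12 with SEs of 0.271 to 0.273, among the smallest of the members (edgeR adjusted p of 0.645 or more). The intervals of Cd9 ran from -0.78 to 0.68 over the 4 comparisons. The transcripts Gm28809 and Gm26728 overlap Cd9 on the opposite strand.

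Itgax encodes CD11c, the integrin alpha X chain of dendritic cells and some macrophages (chr7:128129547-128150657, plus strand, protein-coding, 4.80 kb). It measured 1.18, 0.921, 0.597, 3.32 and 1.25 CPM in WT chow and 2.78, 4.92, 2.78, 4.12 and 3.03 CPM in WT NASH livers. It measured 2.18, 1.97, 2.48, 1.09 and 2.92 CPM in KO chow and 5.71, 2.82, 3.10, 2.92 and 6.17 CPM in KO NASH livers. For Itgax, 4 of 5 WT chow libraries lay below every WT NASH library, and replicate 4 lay among the WT NASH values. The diet difference in Itgax was 1.29 in WT (SE 0.394, edgeR adjusted p = 0.0555) and 0.96 in KO livers (SE 0.374, adjusted p = 0.144). In WT it passed the test with DESeq2 (1.28, adjusted p = 0.0161), without WT chow replicate 4 (1.81, edgeR adjusted p = 0.00729) and without KO chow replicate 5, which enters through the shared spread (1.29, adjusted p = 0.0483). The genotype differences in Itgax were 0.57 on chow and 0.24 on NASH diet (adjusted p = 0.456 and 0.735). The summed dendritic cell markers, 7 genes, had medians of 17.7, 17.9, 13.5 and 17.1 CPM in WT chow, WT NASH, KO chow and KO NASH, and their part in the Itgax values was not tested.

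**Figure D2:**
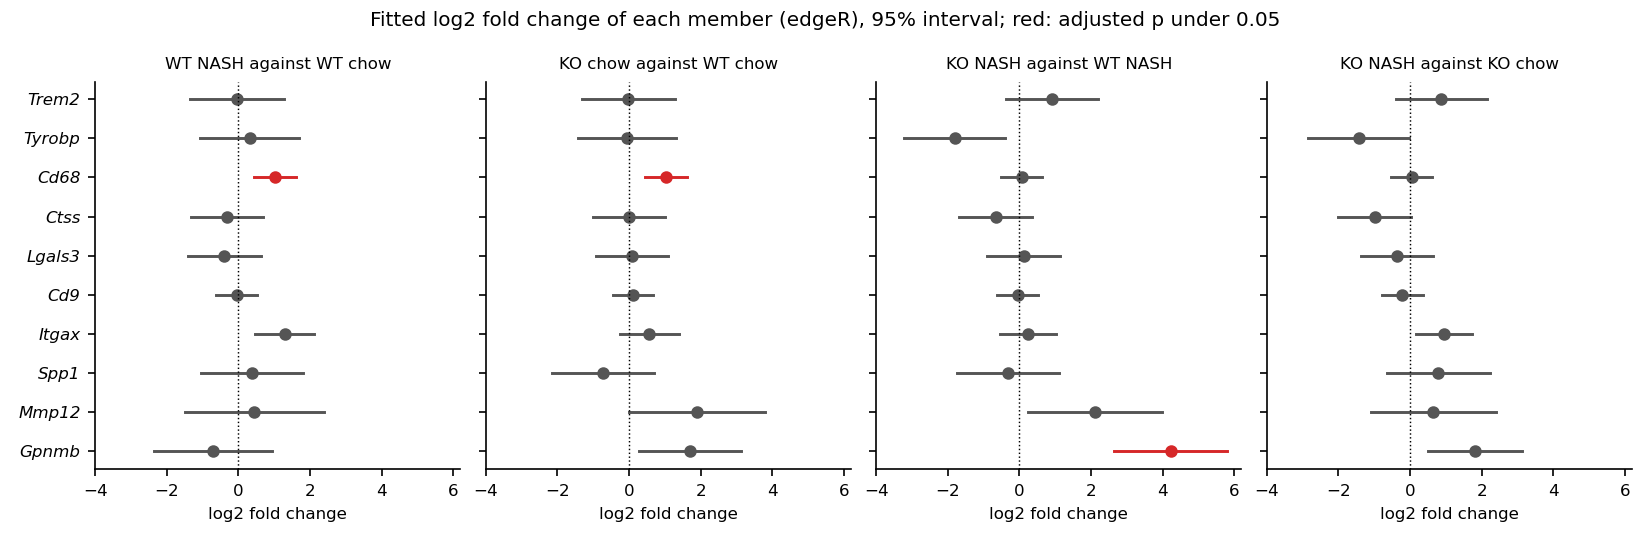
Fitted log2 fold change of each member in the 4 comparisons (edgeR, points) with its 95% interval (lines), red where the adjusted p was under 0.05. Cd68 is red in both comparisons against WT chow and Gpnmb in the genotype comparison on NASH diet.

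Counted over the list, 1 of 10 members passed in WT NASH against WT chow (Cd68), where 5.93% of all tested genes did, and 1 of 10 in KO chow against WT chow (Cd68), where 5.53% did. In KO NASH against WT NASH 1 of 10 passed (Gpnmb), where 9.65% of tested genes did. In KO NASH against KO chow none of the 10 passed with edgeR, where 3.29% of tested genes did; limma voom called 1 and DESeq2 0, and an unadjusted p under 0.05 was seen for 3 members (Gpnmb, Itgax and Tyrobp). For the interaction of genotype and diet none of the 10 passed with edgeR, where 0.139% did; limma voom called 1 and DESeq2 0, and an unadjusted p under 0.05 was seen for 2 members (Gpnmb and Cd68). These shares of the members were near those of all genes. The member median log2 differences were 0.14, 0.11, 0.09 and 0.35 in the 4 comparisons, against medians of 0.01, 0.001, 0.004 and -0.02 over all tested genes, and 5, 7, 6 and 6 of the 10 were positive. In the same order, no member, no member, 1 member (Gpnmb) and no member had 2 groups of libraries without overlap, as did 6.15%, 4.91%, 14.1% and 8.5% of all tested genes. The comparisons share groups of libraries and are not independent.

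Relative to other macrophage genes, Gpnmb and Mmp12 were highest in KO NASH, and so were Trem2, Itgax, Cd68 and Spp1 by smaller margins. The 14 tested genes of a pan-macrophage list (such as Adgre1, Csf1r, Lyz2 and the C1q genes) had a mean log2 CPM of 4.14 ± 0.824, 4.22 ± 0.541, 4.52 ± 0.641 and 4.21 ± 0.186 (SD, n = 5) in WT chow, WT NASH, KO chow and KO NASH. Relative to that mean, Gpnmb averaged -4.37, -5.17 and -3.48 log2 units in the first 3 groups and -1.15 units in KO NASH. Mmp12 averaged -3.98, -3.52 and -2.76 units and then -1.12 units in KO NASH. Trem2 averaged -3.61, -3.78, -4.05 and -2.72 units in the same order. Tyrobp went the other way, from 0.74 and 1.09 units in WT chow and WT NASH to -0.35 units in KO NASH. These levels are a description and were not tested. Within their groups, the list summed highest in WT chow replicate 4, WT NASH replicate 4 and KO chow replicate 5, all of negative length slope. KO NASH had no such library, and the part of the slope in these levels was not tested.

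**Figure D3:**
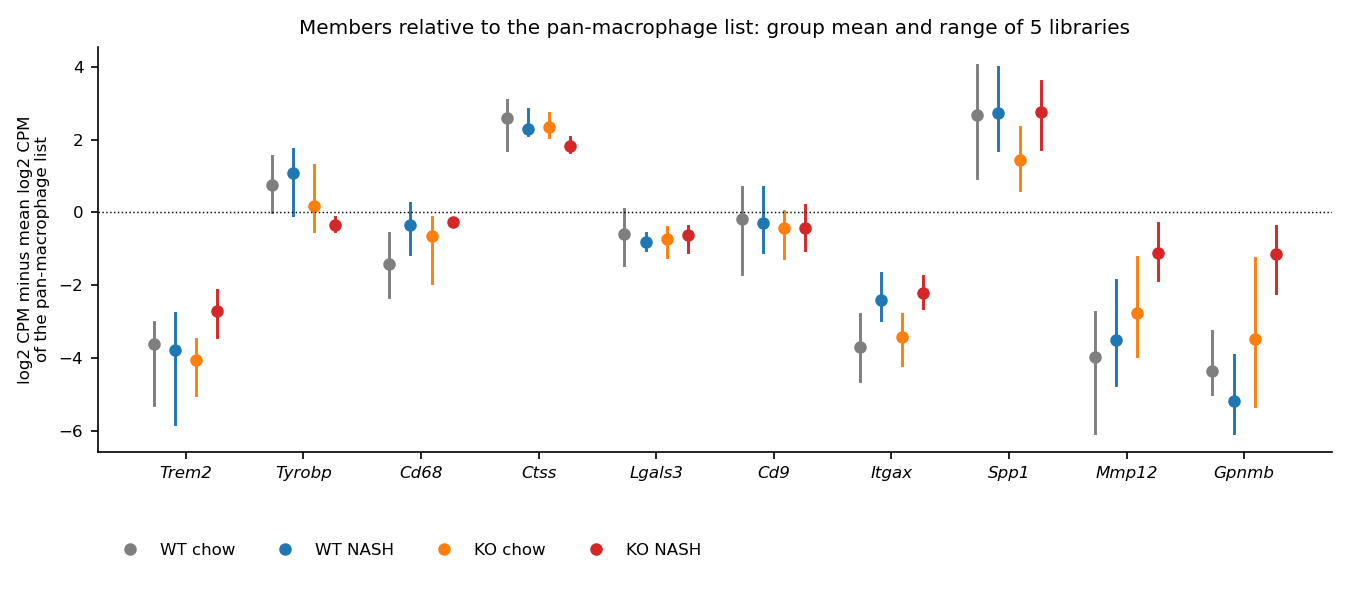
Level of each member relative to the pan-macrophage list (log2 CPM minus the list's mean log2 CPM in the same library), as the mean (point) and range (line) of the 5 libraries in each group. Gpnmb in KO NASH spans -2.20 to -0.38, above all WT NASH libraries (-6.07 to -3.92), while Lgals3 and Cd9 stay near the same relative level in all 4 groups.

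Gene length moved with several of the values above. Over the 20 libraries, which share group, sex and depth, log2 CPM correlated with the length slope at r = -0.76 for Ctss, -0.75 for Tyrobp, -0.55 for Lgals3 and -0.55 for Spp1, all under 2 kb. The correlation was 0.52 for Cd68, also short, 0.35 for Gpnmb, 0.31 for Itgax and -0.06 for Mmp12. It was -0.26 for Trem2, a long gene, and -0.25 for Cd9. In the 6 libraries of negative slope the median was 73.1 CPM for Tyrobp and 192 CPM for Ctss, against 15 and 73.0 CPM in the other 14. Gpnmb had medians of 1.01 and 1.74 CPM in the same libraries. All 5 KO NASH libraries were among the 14, so slope and group were partly confounded, and the part of the slope was not tested beyond the fits above.

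**Figure D4:**
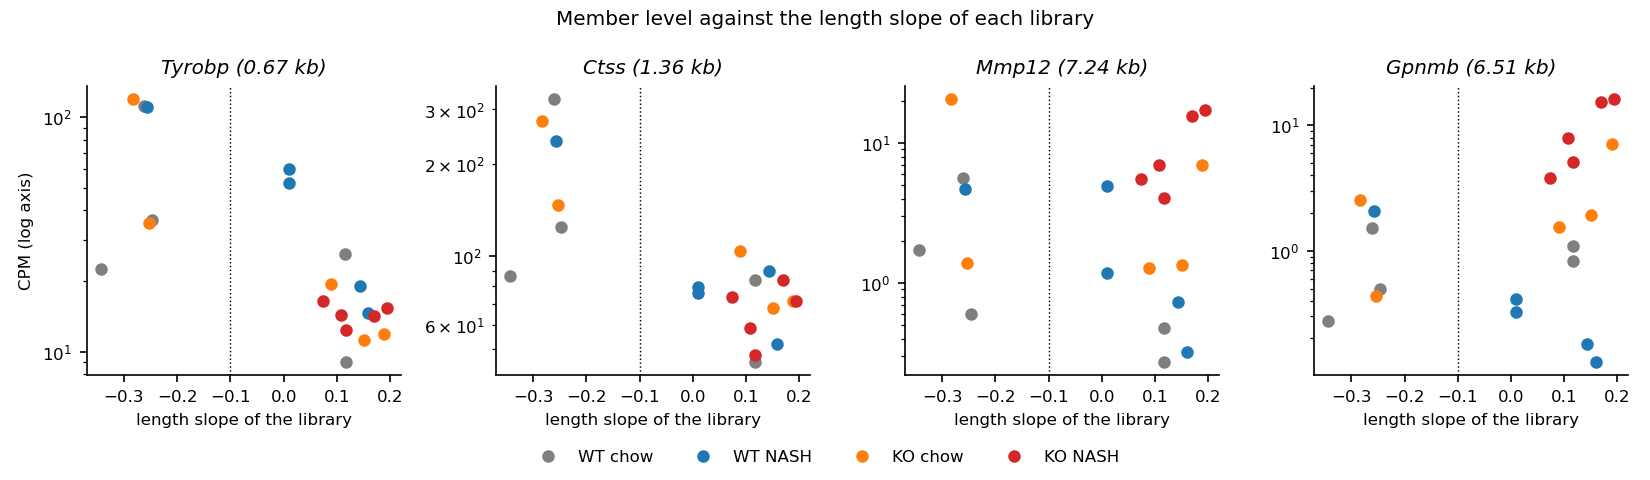
Level of 4 members (CPM, log axis) against the length slope of each library (x axis), coloured by group, with a dotted line at -0.1. The short genes Tyrobp and Ctss are highest to the left of the line, whereas the highest Gpnmb values, 15.3 and 16.2 CPM in KO NASH, lie to the right of it.

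Across the 20 libraries the member most like Gpnmb was Mmp12 (Pearson r = 0.75 of log2 CPM, position 53 of 11485 genes), followed by Trem2 (0.51) and Itgax (0.47). The r was 0.35 for Cd68, 0.29 for Lgals3, 0.21 for Spp1, -0.06 for Ctss, -0.09 for Cd9 and -0.26 for Tyrobp. Trem2 correlated with Mmp12 at 0.77, with Spp1 at 0.72 and with Tyrobp, the gene of its adaptor, at 0.42. After centring each group these were 0.78, 0.78 and 0.74. In the 14 libraries with a length slope near 0 they were 0.76, 0.75 and 0.22, so the r with Tyrobp depended on the libraries used. The pairs Lgals3 and Ctss (0.88) and Tyrobp and Ctss (0.86) were the highest among the members, and in the 14 libraries with a length slope near 0 both were 0.49. Mmp12 and Gpnmb stood at 0.81 in those 14. After centring each group, the r with Gpnmb was 0.58 for Mmp12 and 0.59 for Itgax, so Mmp12 was then not the first. These r values describe libraries that share group, sex and slope, and no p is given.

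The genes most like Gpnmb over all libraries were Kctd17 (r = 0.92), Sprr1a (0.89), Cd93 (0.86), C1qtnf6 (0.86) and Ccdc120 (0.85). Kctd17 encodes an adaptor of a ubiquitin ligase, Sprr1a a small proline-rich protein, and Cd93 a surface glycoprotein of endothelial and myeloid cells. Kctd17 averaged 3.67, 2.64, 7.01 and 11.2 CPM in WT chow, WT NASH, KO chow and KO NASH. Sprr1a had no count in any WT library and averaged 0.573 and 6.59 CPM in KO chow and KO NASH. All 5 genes were higher in KO NASH than in WT NASH without overlap (edgeR adjusted p of 0.000970 to 0.0126), where 14.1% of all tested genes had no overlap. They were picked for likeness to Gpnmb in these same libraries, so this difference follows from the choice and is no separate evidence. C1qtnf6 was also higher in KO chow than in WT chow (log2 difference 2.27, edgeR adjusted p = 0.0235). The C1qtnf6 call on chow was lost without WT chow replicates 3 or 5 or KO chow replicates 1 or 2 (highest adjusted p over all alternatives 0.0982). After centring each group, none of the 5 stayed among the 5 most alike.

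Of 12 genes of TREM2 and TYROBP signalling (such as Syk, Plcg2, Inpp5d, Btk and the related adaptors Hcst and Fcer1g), edgeR and DESeq2 called none in any comparison. At an unadjusted p under 0.05 there were 1, 2, 1, 2 and 2 such genes in the 4 comparisons and the interaction, and limma voom called 4, 4, 0, 0 and 3. Their median log2 differences were 0.19, 0.40, -0.18 and -0.37 in the 4 comparisons.

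Of 26 other genes described in lipid-associated macrophages, 1 fell in WT NASH against WT chow, 1 rose in KO chow against WT chow, 2 rose in KO NASH against WT NASH and 2 fell in KO NASH against KO chow. Of all tested genes, 5.93%, 5.53%, 9.65% and 3.29% were called in these comparisons. Plin2, the lipid droplet coat protein that hepatocytes also make, fell from 1119 to 319 CPM with NASH diet in WT (log2 difference -1.81, SE 0.407, edgeR adjusted p = 0.0121) and from 2150 to 652 CPM in KO livers (-1.72, SE 0.406, adjusted p = 0.0287). In the libraries with a length slope near 0 the WT difference in Plin2 was -0.71 (adjusted p = 0.295). The WT call of Plin2 was also lost with sex as a term, and with sex and length slope as terms. Cd36, a fatty acid translocase, rose from 151 to 1383 CPM with the knockout on chow (3.2, SE 0.475, adjusted p = 0.000811) and from 148 to 517 CPM on NASH diet (1.80, SE 0.450, adjusted p = 0.0170), without overlap in either. Lpl, lipoprotein lipase, rose from 36.3 to 218 CPM in KO NASH against WT NASH (2.59, SE 0.651, adjusted p = 0.0176), a call lost without KO NASH replicate 1 or 5 (adjusted p up to 0.871 over all alternatives). With sex as a term the difference in Lpl was 1.71 (adjusted p = 0.195). Lipa, lysosomal acid lipase, fell from 417 to 190 CPM in KO NASH against KO chow (-1.13, SE 0.246, adjusted p = 0.0202), a call lost without KO NASH replicate 1, 2 or 5 (adjusted p up to 0.143). The Plin2 call in KO livers was lost without KO chow replicate 1, 4 or 5 or KO NASH replicate 1, 2, 4 or 5 (adjusted p up to 0.163 over all alternatives). With length slope as a term, 8 of the 26 rose and 1 fell in KO NASH against WT NASH. The list's medians were -0.05, 0.36, 0.06 and -0.31 in the 4 comparisons.

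Other macrophage genes moved in both directions between KO NASH and WT NASH. Of the 14 pan-macrophage genes tested, Cx3cr1, the fractalkine receptor, rose from 1.22 to 3.32 CPM (log2 difference 1.47, SE 0.439, edgeR adjusted p = 0.0382) and Cd14, the endotoxin co-receptor, from 5.49 to 22.0 CPM (2.00, SE 0.618, adjusted p = 0.0452). Only 4 of the 14 had a positive difference, and their median log2 difference was -0.38. Among all tested genes, 9.65% were called in this comparison. Of 9 markers of resident Kupffer cells, Slc40a1, the iron exporter, fell from 172 to 93.0 CPM (-0.88, SE 0.253, adjusted p = 0.0322) and Timd4, a phosphatidylserine receptor, from 16.1 to 6.0 CPM (-1.41, SE 0.426, adjusted p = 0.0408). All 9 Kupffer markers had a negative difference there, and their summed level was 355 to 433 CPM in KO NASH against 488 to 998 CPM in WT NASH. The 4 calls were each lost without single WT NASH or KO NASH libraries (12 to 14 of 20 such fits kept them), and with sex as a term none of the 4 passed, at 1.37 for Cx3cr1, 1.68 for Cd14, -0.89 for Slc40a1 and -1.64 for Timd4 (adjusted p = 0.117, 0.193, 0.0869 and 0.0504). With sex and length slope as terms Slc40a1 and Timd4 passed, at -1.04 and -1.66 (adjusted p = 0.0170 and 0.0344), and Cx3cr1 and Cd14 did not (adjusted p = 0.0994 and 0.154). Cd14 was lost without WT chow replicate 3, WT NASH replicate 1, 2, 4 or 5 or KO NASH replicate 1, 3 or 5, and Cx3cr1 without WT NASH replicate 1, 2 or 3 or KO NASH replicate 1, 3 or 5. Slc40a1 was lost without WT NASH replicate 2, 3, 4 or 5 or KO NASH replicate 1, 2, 3 or 5, and Timd4 without WT NASH replicate 2, 3 or 4 or any KO NASH replicate. The highest adjusted p over all alternatives was 0.530 for Cd14, 0.480 for Cx3cr1, 0.193 for Slc40a1 and 0.157 for Timd4. Pan-macrophage and Kupffer genes had no edgeR call in the other 3 comparisons or the interaction; at an unadjusted p under 0.05 there were 0, 2, 6 and 1 pan-macrophage and 0, 0, 8 and 4 Kupffer genes for diet in WT, genotype on chow, diet in KO and the interaction. DESeq2 called 1 pan-macrophage gene in KO chow against WT chow and 3 Kupffer genes in KO NASH against KO chow, and limma voom called 1, 3, 1 and 1 pan-macrophage and 2, 0, 2 and 2 Kupffer genes.

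The summed adipocyte markers, like Gpnmb, had their highest median in KO NASH, where nearly all of the sum was Cfd. The summed level of 5 adipocyte markers was 0 to 1.32 CPM in WT chow, 0.452 to 0.969 CPM in WT NASH, 0.248 to 5.15 CPM in KO chow and 3.59 to 54.5 CPM in KO NASH. Lep was at 0 in every group. Only Cfd, the secreted protease adipsin, was tested, and it was higher in KO NASH (16.3 CPM) than in WT NASH (0.0129 CPM) without overlap (edgeR adjusted p = 0.000687). Of all tested genes, 14.1% had no overlap there. The 5 markers summed to 1.32 CPM at most in WT libraries. Cfd therefore met the count filter mainly through the KO libraries where it was high, and its call is no separate evidence. The highest sum, in KO NASH replicate 4, fell in a library with 5.08 CPM of Gpnmb, below replicates 1 and 5 with 7.12 and 9.43 CPM of adipocyte markers and 15.3 and 16.2 CPM of Gpnmb. Since Cfd was the only marker tested, these values do not measure adipocytes as such. The part of adipocytes in the Gpnmb and Lpl differences was not tested.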

How the data were processed

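Per the labels, total RNA of 20 mouse livers (Trizol, RIN above 8) was made into libraries by Illumina protocols; the submitters' processing notes name HISAT2 2.0.4 and GRCm38. What each was used for, the counting tool, the annotation and the strand setting were, for this table, not given in the sources used here. Its deposited values are raw counts per gene symbol and library, in one table for all mice. The columns were matched to the labels by genotype, diet and number, with CD read as chow and HFD as NASH diet.

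The counts were fitted in R 4.3.3 with edgeR 4.0.16: filterByExpr with a minimum count of 10, TMM, group means over all 20 libraries, quasi-likelihood tests, and Benjamini-Hochberg adjustment over the 14440 genes tested, with calls at an adjusted p under 0.05. Alternatives used DESeq2 1.42.0, limma 3.58.1 (voom with quality weights per library), other filters and scalings, sex, length slope, a replicate block, and each library left out. The code was tested on simulated data. The labels number the mice, so p-values measure the spread between mice, and libraries of 9958935 to 20601955 counts limit low genes most. Intervals are at 95%. Gene lengths and positions are from GENCODE M21. A prior count of 2 was used for log2 CPM.

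The members and gene lists were chosen with earlier results of these data known. Named genes are the members, Pck1, up to 3 called genes of smallest p per list of related genes and comparison, up to 2 per marker list in macrophage, adipocyte and other cell types, and the 5 genes most like Gpnmb among those of at least 1 CPM on average.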

Additional observations from a re-analysis of the deposited data

Results flagged for a closer look

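In 13 of 40 sets of 5 libraries (each member in each group), the highest library stood apart from the other 4. The gap was more than Dixon's 95% limit of 0.71 of the range. WT chow replicate 4 was that library for Trem2 (4.08 CPM, next 1.46), Lgals3 (40.5 CPM, next 11.4), Itgax (3.32 CPM, next 1.25), Mmp12 (5.60 CPM, next 1.73), Tyrobp (112 CPM, next 36.2) and Ctss (324 CPM, next 124). WT NASH replicate 4 was that library for Gpnmb (2.06 CPM, next 0.415), Spp1 (522 CPM, next 150), Lgals3 (22.2 CPM, next 9.69) and Ctss (237 CPM, next 89.9). KO chow replicate 5 was that library for Spp1 (246 CPM, next 58.6) and Tyrobp (119 CPM, next 35.2). WT chow replicate 3 was that library for Cd9 (24.3 CPM, next 14.9). All 4 libraries have a negative length slope, and no KO NASH library stood apart in this way. Pan-macrophage genes summed to 1831 CPM in WT chow replicate 4, 1757 CPM in WT NASH replicate 4 and 2292 CPM in KO chow replicate 5, the highest of their groups; the part of these sums in the 13 values was not tested.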

How the results depend on the processing

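The number of members called was 1, 1, 1, 0 and 0 for diet in WT, genotype on chow, genotype on NASH diet, diet in KO and their interaction. In WT NASH against WT chow it was 2 (Cd68 and Itgax) with DESeq2, limma voom or length slope as a term. Limma voom had quality weights per library, here and throughout. It was 0 with only the 2 groups fitted, sex as a term, sex and length slope, or KO NASH replicates 1 and 5 left out. That last fit was chosen after seeing the data. Leaving out single libraries gave 0 to 2. In KO chow against WT chow it was 2 with limma voom (Cd68 higher, Spp1 lower) and with sex and length slope (Cd68 and Gpnmb), and 0 with only the 2 groups, males only or libraries of slope near 0; single libraries gave 0 to 1. With sex as a term it stayed 1, but the member was Gpnmb. In KO NASH against WT NASH it was 2 with DESeq2 or only the 2 groups (Gpnmb and Tyrobp) and with length slope or the replicate block (Gpnmb and Mmp12), and 3 with limma voom or libraries of slope near 0 (Gpnmb, Mmp12 and Tyrobp); single libraries gave 1 to 2. The fit of males only is not counted for the 2 comparisons with WT NASH or for the interaction, as it rests on 1 WT NASH library. In that fit the KO NASH against WT NASH difference in Gpnmb was 2.43 on the log2 scale, the lowest of its alternatives. In KO NASH against KO chow it was 1 with limma voom (Gpnmb), with length slope, with sex and length slope, and with libraries of slope near 0 (Spp1), and single libraries gave 0 to 1. For the interaction it was 1 with limma voom (Cd68). The causes of these differences were not tested.

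When replicate number entered as a block, the members called were 1, 1, 2, 0 and 0; the block added Mmp12 (log2 difference 2.73, edgeR adjusted p = 0.0391) and changed no other member's call. Equal numbers do not pair the mice: 13 of 30 same-numbered pairs deviated together at r over 0.1, from -0.41 to 0.52. Of the 5 genes most like Gpnmb, 0 remained when groups were centred. Over the members' single differences, 1639 alternatives stayed on the same side of the threshold, 25 passed newly and 26 no longer did. None reversed a call. The sign of differences that were not called could change, as for Ctss in KO chow against WT chow, in 14 of 34 alternatives. Gpnmb rests on as few as 2 counts in a WT NASH library.

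The number of all genes called, 857, 798, 1393, 475 and 20 in the order above, moved more than that of the members. It was 5866, 5836, 3434, 1835 and 1949 with limma voom and 1496, 1389, 2196, 1303 and 189 with DESeq2. With only the 2 groups fitted it was 426, 332, 2119 and 315. With length slope as a term it was 1775, 1656, 2386, 919 and 190. With sex as a term it was 161 for diet in WT, 625 for genotype on NASH diet and 4 for the interaction; with both terms it was 1995 for genotype on chow, 1353 for diet in KO and 69 for the interaction. Males only gave 67 for diet in KO. Their comparisons with WT NASH and the interaction rest on 1 WT NASH library and are not counted. Libraries of slope near 0 gave 3076, 1156 and 80 in the last 3 comparisons. With KO NASH replicates 1 and 5 summed these were 756, 183 and 4, and with both left out 373, 104 and 11. Without the filter on low counts diet in KO gave 253, and with the replicate block the interaction gave 4. Single libraries left out gave 409 to 1718, 348 to 1220, 702 to 1704, 142 to 784 and 4 to 145.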

Other observations

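Haemoglobin genes of red blood cells fell with NASH diet in both genotypes: Hbb-bs from 65.3 to 13.2 CPM in WT (log2 difference -2.31, SE 0.425, edgeR adjusted p = 0.00311) and from 63.4 to 10.7 CPM in KO livers (-2.57, SE 0.427, adjusted p = 0.00468), and Hbb-bt likewise (-2.16 and -2.00, adjusted p = 0.0128 and 0.0302). These were the calls among 5 red blood cell genes. Over all alternatives the adjusted p reached 0.362 for Hbb-bs and 0.562 for Hbb-bt in WT livers. The Hbb-bt call in WT livers was lost with sex as a term, but not with sex and length slope as terms. The Hbb-bt call in KO livers was lost without KO chow replicate 1 or 4 or KO NASH replicate 1, 2, 4 or 5 (adjusted p up to 0.158 over all alternatives). In KO NASH against KO chow, Col1a1, a fibrillar collagen chain made by activated stellate cells, rose from 3.69 to 17.9 CPM (2.26, SE 0.532, adjusted p = 0.0287) and Sox9, a transcription factor of bile duct cells, from 0.957 to 3.48 CPM (1.82, SE 0.445, adjusted p = 0.0326). Both calls were lost without KO chow replicate 1, 4 or 5 or KO NASH replicate 1 or 5, Col1a1 also without KO NASH replicate 2 and Sox9 without KO NASH replicate 4 (adjusted p up to 0.205).

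In KO NASH against WT NASH, the sinusoidal endothelial genes Lyve1, a hyaluronan receptor that some macrophages also carry, and Kdr, the VEGF receptor, were higher (log2 differences of 1.62 and 0.66, SE 0.359 and 0.190, edgeR adjusted p = 0.00866 and 0.0323), the 2 calls among 7 such genes. With sex as a term neither passed, and with sex and length slope as terms only Lyve1 did. Over all alternatives the adjusted p of Lyve1 reached 0.171. Kdr was lost without WT NASH replicate 2, 4 or 5 or KO NASH replicate 1, 3 or 5 (adjusted p up to 0.212). Cela1, a pancreatic elastase, was lower, at 3.72 against 33.5 CPM (-3.15, SE 0.600, adjusted p = 0.00288). The summed exocrine pancreas markers reached 109 CPM in WT NASH replicate 4 against 11.9 to 21.0 CPM in the other 4 WT NASH libraries. Without the 6 libraries of negative slope, of which it is the only one in these 2 groups, the difference in Cela1 was -2.04 (adjusted p = 3.01e-05). Of T cell genes, Cd3e rose with NASH diet in WT livers from 0.216 to 0.995 CPM (2.11, SE 0.520, adjusted p = 0.0188), a call lost without WT NASH replicate 2 (adjusted p up to 0.743 over all alternatives), and Cd3g was lower in KO NASH than in WT NASH, at 0.931 against 3.39 CPM (-1.81, SE 0.535, adjusted p = 0.0371). The Cd3g call was lost without WT NASH replicate 2, 4 or 5 or KO NASH replicate 1, 3, 4 or 5 (adjusted p up to 0.160). Both the Cd3e and the Cd3g call were lost with sex as a term, and with sex and length slope as terms. Chil3, a chitinase-like protein of myeloid cells, was higher in KO chow than in WT chow, at 7.46 against 0.263 CPM (4.80, SE 1.18, adjusted p = 0.0213), a call lost without WT chow replicate 3 or KO chow replicate 5 (adjusted p up to 0.242). The Chil3 call was also lost with sex as a term, but not with sex and length slope as terms.

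Markers of B cells, dendritic cells, hepatocytes and neutrophils (4, 6, 7 and 6 genes tested) had no call with edgeR in any comparison. At an unadjusted p under 0.05 the 4 comparisons and the interaction held 0, 0, 1, 3 and 1 B cell genes, 0, 0, 2, 0 and 1 dendritic cell genes, 2, 0, 0, 1 and 0 hepatocyte genes and 1, 0, 0, 0 and 0 neutrophil genes. DESeq2 called 3 B cell genes lower and 1 hepatocyte gene higher in KO NASH against KO chow, and 1 hepatocyte and 1 neutrophil gene higher with NASH diet in WT. In the same order of comparisons limma voom called 0, 0, 1, 1 and 0 B cell, 0, 1, 1, 0 and 0 dendritic cell, 3, 2, 0, 1 and 1 hepatocyte and 2, 1, 0, 0 and 0 neutrophil genes.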
